A study of Zea mays with 2 samples.

Results

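Long loci of the maize (Zea mays) genome, defined here as features whose listed span on chromosomes 1 to 10 reaches 20 kb, with at most 2 features on that span, were examined in RNA of fl4 and wild type endosperm. Of 65315 features on these chromosomes, 1140 (1.75%) met this definition, on 883 distinct spans. At least 1 FPKM (a fragment density scaled by feature length and library size) in either library was reached by 731 of them, on 623 spans, and these 731 enter the comparison. The study profiled endosperm at 19 days after pollination from the fl4 (floury4) mutant and from wild type, with 1 library per genotype in the labels. The series design speaks of triplicates, but each file holds a single value per feature, so no value below has an error between plants and no p-value is given. The source is given as kernel and the tissue as endosperm. The inbred background, the allele and whether material was pooled are not stated in the labels or files used here.

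Endosperm is the storage tissue of the kernel, and at this stage it fills with starch and with zeins, the storage proteins of maize. Kernels of floury4 are soft and opaque. Much of the maize genome consists of transposable elements, above all long terminal repeat retrotransposons, and many maize genes carry such elements inside their introns. A locus can therefore extend over a long stretch of DNA while its mature transcript stays short. The alpha-zein genes, in contrast, are compact and lack introns. The spans in the files are genomic, so that a long span can mean long introns, several overlapping transcription units, or both, and the files do not separate these cases.

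The features carry positions and no gene names. None of them (0 of 65535) matched the RefSeq gene table at hand, so no gene name, role or sequence is given, and markers of endosperm, embryo or aleurone could not be looked up. In bulk RNA of this kind, fewer cells of a type and less RNA per cell cannot be told apart. The summed FPKM over all listed features was 1132704 in fl4 and 1025980 in wild type.

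The long loci ranged in span from 20013 to 191582 bp, with a median of 28077 bp, against a median of 2076 bp over all features on the chromosomes. A single feature was listed on 626 of the spans and 2 features on 257. Spans of 20 kb or more with 3 or more features hold a further 508 features, which are not members. At the edge of the definition lay features of 20013 and 20014 bp, both included, and of 19982 and 19988 bp, both left out. The included pair on the 20013 bp span stood at 15.6 and 0.446 FPKM in fl4 and at 13.96 and 0.832 FPKM in wild type. The excluded feature of 19988 bp stood at 20.8 FPKM in fl4 and 20.3 FPKM in wild type.

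The share of long loci with at least 1 FPKM in either library was 64.1%, and over all features it was 59.0%. The other 409 long features were low in both libraries, with a median of 0.0885 FPKM in fl4 and 0.0900 FPKM in wild type. Of these low features 17 were listed at exactly 0 in fl4 and 15 at exactly 0 in wild type. They also had longer spans, with a median of 31243 bp, against 26939 bp for the 731 that were kept.

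Long loci were transcribed at moderate levels, and few were abundant. The median of the 731 was 9.08 FPKM in fl4 and 8.32 FPKM in wild type, whereas over all 38541 features kept by the same filter it was 6.23 FPKM in fl4 and 5.98 FPKM in wild type. Kept features on spans of 10 to 20 kb, with at most 2 features a span, had higher medians than the long loci. These were 11.1 FPKM in fl4 and 10.5 FPKM in wild type. At least 100 FPKM in either library was reached by 8 long loci (1.09%) and by 1443 of all features (3.74%). The summed level of the long loci was 1.24% of the total FPKM in either library, and they made up 1.90% of the kept features. Levels were slightly lower at longer spans, with a Spearman correlation of -0.11 between span and FPKM in each library across the 731 features. These features come from the same 2 libraries and some share a span, so the correlation is a description.

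The 8 long loci with the highest mean level held 28.5% of the summed FPKM of long loci in fl4 and 27.6% in wild type. All 8 lay within 2-fold, as did 94.5% of the 731. The highest was a feature on chromosome 5 at 159683410 to 159730650, spanning 47241 bp, with 1291.5 FPKM in fl4 and 1489.4 FPKM in wild type. Next came 1 of the 2 features on the longest span of all, chromosome 3 at 23904350 to 24095931, with 1023.9 FPKM in fl4 and 614.9 FPKM in wild type. These 2 features thus lay on opposite sides of equality, the chromosome 5 locus lower in fl4 and the chromosome 3 locus higher.

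A feature on chromosome 1 at 162031508 to 162081082 stood at 740 FPKM in fl4 and 677 FPKM in wild type. A feature on chromosome 2 at 71110425 to 71138423 stood at 329 FPKM in fl4 and 218 FPKM in wild type. The remaining 4 were less abundant, and 3 of them were higher in fl4. On chromosome 4, at 163251852 to 163272206, the values were 229 FPKM in fl4 and 180 FPKM in wild type. On chromosome 7, the feature at 173194134 to 173216721 had 177 FPKM in fl4 and 131 FPKM in wild type, while that at 89886940 to 89931943 had 110 FPKM in fl4 and 137 FPKM in wild type. The eighth, on chromosome 1 at 11910893 to 11943975, had 102 FPKM in fl4 and 78.9 FPKM in wild type. Among the 8, 6 were therefore higher and 2 lower in fl4, with log2 ratios between -0.31 and 0.73. Of all features at 30 FPKM or more in either library, 71.8% were above wild type in fl4, as were 79.4% of the 97 long loci at that level. The balance among the 8 was thus not particular to them. Under a scaling to the same total without the 20 most abundant features of all, the chromosome 1 feature at 162031508 turned to a log2 ratio of -0.027. This left 5 of the 8 higher and 3 lower.

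The longest spans with a kept feature behaved unevenly. The 191582 bp span of chromosome 3 held, beside its abundant feature, another at 28.4 FPKM in fl4 and 17.1 FPKM in wild type, so that both features of this span were higher in fl4, by 0.73 and 0.70 on the log2 scale. The second longest, 169844 bp on chromosome 1, had a kept feature listed at 0 in fl4 and at 2.09 FPKM in wild type. The next, 153144 bp on chromosome 10, had 8.80 FPKM in fl4 and 1.11 FPKM in wild type. On chromosome 3, the span from 168695538 to 168839001 had 1 feature at 2.70 FPKM in fl4 and 2.41 FPKM in wild type, and another at 2.55 FPKM in fl4 and 1.22 FPKM in wild type. A span on chromosome 5, from 105644742 to 105781509, had a kept feature at 24.8 FPKM in fl4 and 23.5 FPKM in wild type. With 1 FPKM added to each value, as in the comparison below, 2 of these 5 spans had a feature past 2-fold, 1 in each direction. The chromosome 3 feature at 2.55 FPKM was 2.10 times its wild type value as listed. Its log2 ratio was 0.68 with 1 FPKM added and 1.01 with 0.1 FPKM added.

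**Figure D1:**
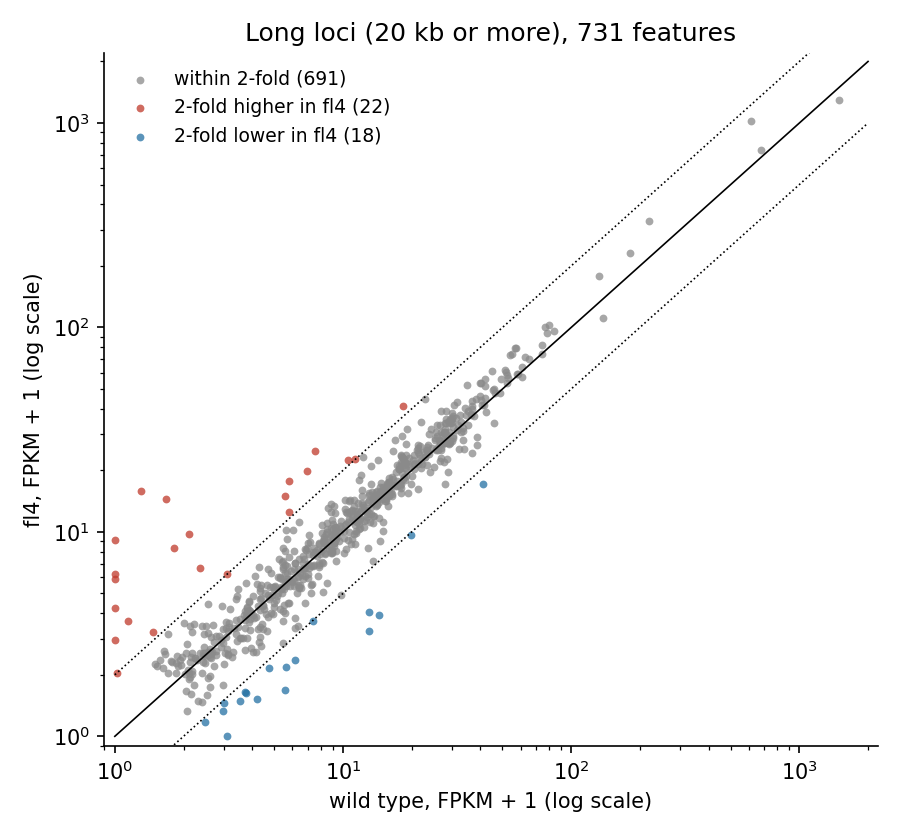
Each point is 1 of the 731 long features, with FPKM + 1 in fl4 on the vertical axis and in wild type on the horizontal axis, both on log scales. The solid line marks equality and the dotted lines 2-fold, with 691 features within them, 22 above (red) and 18 below (blue), and all 8 features of at least 100 FPKM lie within.

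The comparison of fl4 with wild type asks which long loci give more or less transcript in the mutant. Differences are given as log2((fl4 + 1)/(wild type + 1)) on the FPKM values as the authors scaled them. A 2-fold difference on this scale was counted, with no test behind it. Most long loci were present at similar levels in both genotypes: 691 of 731 (94.5%) lay within 2-fold, 22 (3.01%) were higher in fl4 by 2-fold or more, and 18 (2.46%) were lower by 2-fold or more. Together these were 5.47% of the long loci, against a background of 10.6% over all 38541 features, of which 6.04% were higher and 4.59% lower. The middle of the log2 ratios was 0.066 for long loci and 0.070 for all features, with quartiles of -0.10 and 0.23 for long loci and of -0.18 and 0.30 for all features. Scaling to the same total, leaving out the 20 most abundant features of all, lowered log FPKM ratios by 0.15. The split of long loci past 2-fold then became 17 higher and 21 lower. Over all 38541 features it became 1909 higher and 2017 lower. In both groups the slight excess of higher ones thus depended on the scaling, and its reversal was not particular to long loci.

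The background over all features is shaped by short spans, and a comparison with spans of similar length gave another picture. Among features on spans with at most 2 features, 41.8% of those under 0.3 kb differed 2-fold, 12.6% of those from 0.6 to 1.1 kb, 4.20% of those from 2.5 to 5 kb and 2.90% (60 of 2067) of those from 10 to 20 kb. The long loci did not continue this decline. Their share was 5.41% from 20 to 30 kb (25 of 462), 4.21% from 30 to 50 kb (8 of 190), 7.81% from 50 to 100 kb (5 of 64) and 13.3% from 100 to 200 kb (2 of 15). The last 2 classes rest on few features. Across the 731 members, span and the size of the log2 ratio were almost unrelated, with a Spearman correlation of 0.023, again as a description. Spans of 20 kb or more with 3 or more features had a share of 7.79% (24 of 308).

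**Figure D2:**
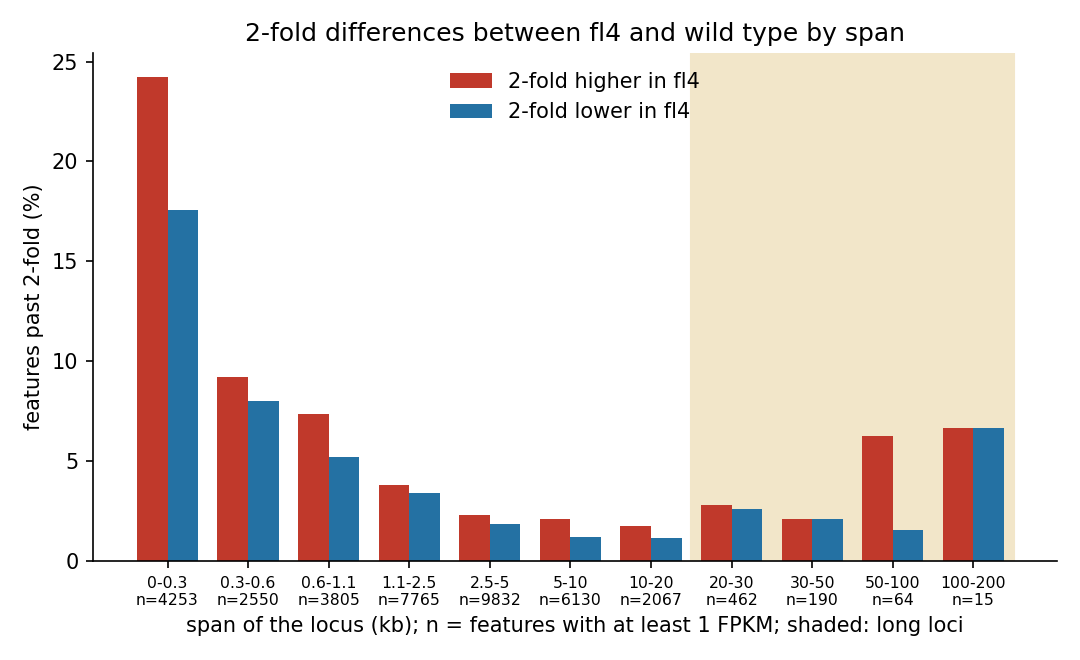
Bars give the percentage of features at least 2-fold higher in fl4 (red, left) and at least 2-fold lower (blue, right) in classes of span in kb, for features of at least 1 FPKM on spans with at most 2 features; the shaded classes are the long loci. The combined share falls to 2.90% at 10 to 20 kb and stands between 4.21% and 13.3% in the long classes, of which the longest holds 15 features.

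Where the share of long loci stood relative to the other groups varied with abundance. Grouped by the higher of their 2 values, 8.80% of the 125 long loci at 1 to 3 FPKM differed 2-fold, against 8.76% of all features at that level and 3.97% of those on spans of 10 to 20 kb. At 3 to 10 FPKM the shares were 5.71% of 245 long loci, 12.4% of all features and 3.86% of the 10 to 20 kb class. At 10 to 30 FPKM they were 4.92% of 264 long loci, 10.7% of all features and 1.79% of the 10 to 20 kb class. At 30 FPKM or more only 2 of 97 long loci (2.06%) differed 2-fold, against 10.02% of all features and 2.75% of the 10 to 20 kb class. Long loci thus had a larger share than spans of 10 to 20 kb in 3 of the 4 classes and a smaller one in the most abundant class. The median log2 ratio of long loci was 0.007 at 1 to 3 FPKM and 0.185 at 30 FPKM or more, and over all features it was 0.0003 at 1 to 3 FPKM and 0.166 at 30 FPKM or more.

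The 22 higher features lay on 9 chromosomes and reached between 1.05 and 40.3 FPKM in fl4, with a median of 8.47 FPKM. In wild type they were listed at up to 17.3 FPKM, 3 of them at exactly 0 and 6 more below 0.5 FPKM. The 18 lower features lay on 8 chromosomes and ran from 0 to 16.1 FPKM in fl4, with a median of 0.923 FPKM. In wild type they ran from 1.48 to 39.9 FPKM, with a median of 4.16 FPKM. Differences past 2-fold were therefore seen in long loci of low and moderate abundance.

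Among features of at least 10 FPKM in either library and above 0 in both, the 2 largest ratios were both on chromosome 4. The feature at 123981712 to 124003219, spanning 21508 bp, had 14.9 FPKM in fl4 and 0.307 FPKM in wild type, a log2 ratio of 3.60. The feature at 42448055 to 42472698, spanning 24644 bp, had 13.5 FPKM in fl4 and 0.669 FPKM in wild type, a log2 ratio of 3.12. Their nearest kept features on other spans, 339 and 31158 bp away, had log2 ratios of 0.32 and -0.034, so the neighbours did not share the difference.

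The 2 smallest ratios were on chromosomes 3 and 2. On chromosome 3, the feature at 83042234 to 83069098 stood at 2.26 FPKM in fl4 and 12.0 FPKM in wild type, a log2 ratio of -1.998. On chromosome 2, a feature on the span from 22171981 to 22193718 stood at 2.90 FPKM in fl4 and 13.4 FPKM in wild type, a log2 ratio of -1.89. The other feature of that chromosome 2 span was also lower in fl4 but within 2-fold, at 2.66 FPKM in fl4 and 4.46 FPKM in wild type.

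A log2 ratio of 2 or more was reached by 8 long loci, or 1.09%, and the background for this rule was 2.05%. None of the 731 reached -2, the lowest lying just short of it, while 1.24% of all features did. This count of 0 depended on the settings, since the chromosome 3 feature went from -1.998 to -2.04 with median centring, to -2.10 with scaling to the same total and to -2.36 with a pseudocount of 0.1 FPKM. With that pseudocount the chromosome 2 feature also passed it, at -2.17. Of the 8 higher features, 7 were below 1 FPKM in wild type and were kept through their fl4 value. Besides the 2 chromosome 4 loci and the long chromosome 10 locus, the 8 comprised 2 features listed at 0 in wild type, 2 listed close to 0 and 1 further feature. Those listed at 0 in wild type stood at 8.14 FPKM in fl4 on chromosome 1 and at 3.22 FPKM in fl4 on chromosome 8. Those close to 0 were both on chromosome 2, with 5.24 and 4.89 FPKM in fl4 against 0.00201 and 0.000470 FPKM in wild type. The further feature, on chromosome 1, had 7.30 FPKM in fl4 and 0.812 FPKM in wild type. Without counts, a listed 0 cannot be told apart from an estimate that failed, so no fold is given for the features listed at 0.

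Other differences of moderately abundant long loci were smaller. On chromosome 7 a feature with a 38778 bp span had 23.9 FPKM in fl4 and 6.51 FPKM in wild type. On chromosome 9 a feature with a 28540 bp span had 16.8 FPKM in fl4 and 4.81 FPKM in wild type. Of the 5 lower features that reached 10 FPKM, 2 lay on chromosome 4, at 16.1 and 8.62 FPKM in fl4 against 39.9 and 18.9 FPKM in wild type. Another lay on chromosome 1, at 3.04 FPKM in fl4 and 12.1 FPKM in wild type. In both directions, then, the largest differences were not those of the most abundant loci. With 8 long loci at 100 FPKM or more and 5.47% of all long loci past 2-fold, this says little about abundance.

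**Figure D3:**
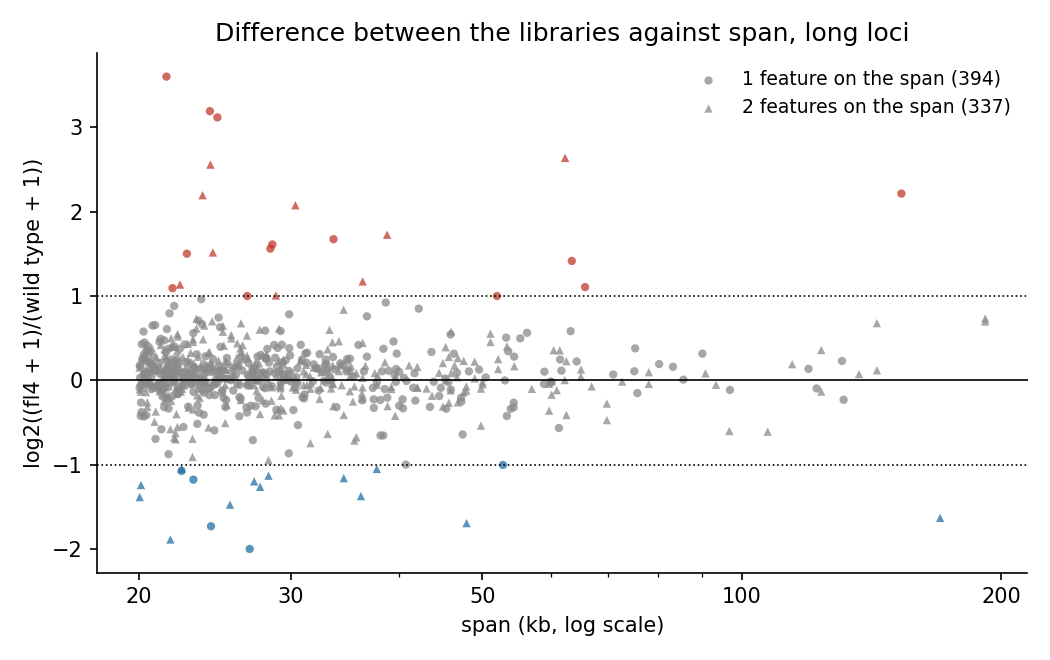
The fl4 to wild type log2 ratio on the vertical axis is plotted against span in kb on a log scale for the 731 long features, circles for spans with 1 feature (394) and triangles for spans with 2 (337). Red points are at least 2-fold higher in fl4, blue points at least 2-fold lower, dotted lines mark 2-fold; 8 points reach a log2 ratio of 2 and none reaches -2.

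Spans with 1 feature and spans with 2 differed in the balance of directions. Of 394 features alone on their span, 13 (3.30%) were higher in fl4 past 2-fold and 5 (1.27%) were lower. Of 337 features on spans shared by 2, 9 (2.67%) were higher and 13 (3.86%) lower. Over all 38541 kept features 6.04% were higher and 4.59% lower. The share in either direction was 4.57% for the first and 6.53% for the second, and their medians were 10.2 and 7.99 FPKM in fl4 and 9.18 and 7.89 FPKM in wild type. Members on 1 span are not independent, and this difference in balance was not tested. Scaling to the same total turned the split of all 731 to 17 higher and 21 lower, and that of all 38541 kept features to 1909 higher and 2017 lower. This scaling was not applied to the 2 kinds of span.

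The 2 features of a shared long span often stood at different levels. Both reached 1 FPKM on 108 of the 257 shared spans, 1 of them did on 121, and neither on 28. On the 108 spans the more abundant feature was at a median of 2.93 times the other in fl4 and 2.74 times in wild type, and it was the same feature in both libraries on 105 of them. Shorter shared spans were similar, at 2.80 times in fl4 and 2.64 in wild type under 20 kb, and 3.27 and 2.95 from 10 to 20 kb. The log2 ratios of the 108 long pairs lay on the same side of equality on 70 spans (64.8%). Both features were above wild type on 42 of these spans and neither was on 28. The share on the same side was 66.6% of 2858 such pairs on spans under 20 kb and 60.5% of 291 pairs on spans of 10 to 20 kb. The side of equality depends on the scaling, and these shares were taken under the authors' scaling only. The median absolute difference between the 2 log2 ratios was 0.26 on long spans and 0.24 on spans under 20 kb.

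Where a feature of such a pair was past 2-fold on the log2 scale used here, the partner stayed within it. On 12 of the 108 long spans 1 feature was past 2-fold, and on none were both. That none had both depended on the pseudocount of 1 FPKM. A 28249 bp span of chromosome 9 had log2 ratios of -0.94 and -1.13. Its features stood at 1.85 and 1.16 FPKM in fl4 against 4.48 and 3.72 FPKM in wild type, both past 2-fold without a pseudocount. Among pairs on spans under 20 kb, 303 had at least 1 feature past 2-fold, and of these 77 had both past it in the same direction and 1 in opposite directions. Of 21 such pairs on spans of 10 to 20 kb, 1 had both past 2-fold in the same direction. On a 24348 bp span of chromosome 5, 1 feature stood at 18.8 FPKM in fl4 and 5.93 FPKM in wild type, and its partner at 4.30 FPKM in fl4 and 4.38 FPKM in wild type. On another span of chromosome 5, of 36328 bp, 1 feature stood at 40.3 FPKM in fl4 and 17.3 FPKM in wild type, and its partner at 72.4 FPKM in fl4 and 52.9 FPKM in wild type. These 2 spans lie 602 kb apart, and each holds a feature that was higher in fl4. The other long loci past 2-fold within 1 Mb of each other, 272 kb apart on chromosome 1, went in opposite directions, at 13.9 FPKM in fl4 and 4.59 FPKM in wild type for one and at 0 FPKM in fl4 and 2.09 FPKM in wild type for the other.

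On chromosome 4, a span of 27622 bp had 1 feature at 16.1 FPKM in fl4 and 39.9 FPKM in wild type, with its partner at 15.1 FPKM in fl4 and 20.2 FPKM in wild type. On chromosome 7, a span of 27187 bp had 1 feature at 0.637 FPKM in fl4 and 2.75 FPKM in wild type, with its partner at 17.0 FPKM in fl4 and 17.7 FPKM in wild type. Whether reads were divided between the features of a shared span by the authors' quantification is not known, and its part in these differences was not tested.

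**Figure D4:**
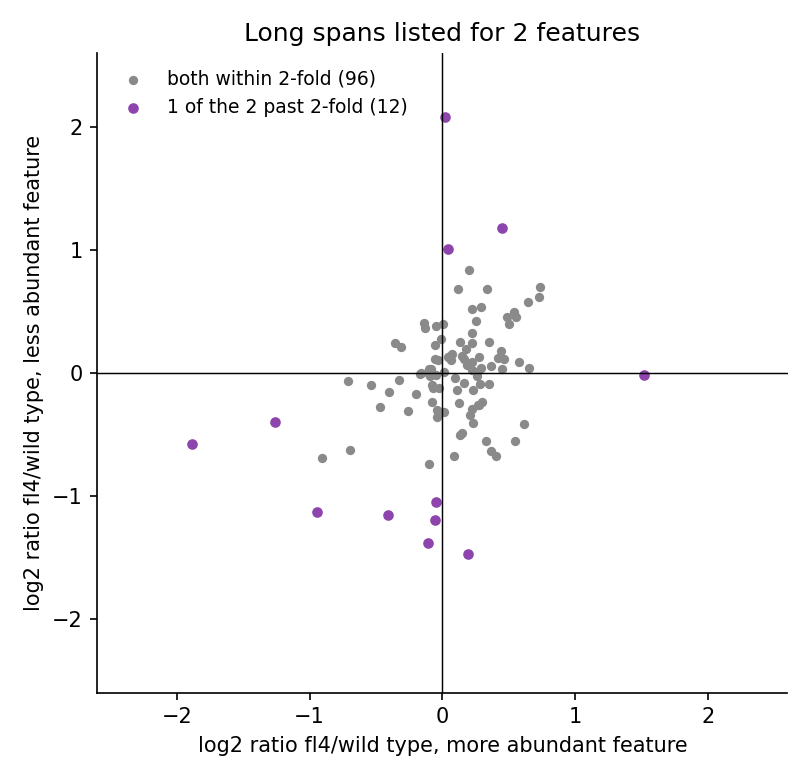
Each point is 1 of 108 long spans whose 2 features both reach 1 FPKM, with the fl4 to wild type log2 ratio of the more abundant feature on the horizontal axis and of the less abundant one on the vertical axis. Purple points are the 12 spans with 1 feature past 2-fold, and on 70 of the 108 spans the 2 ratios lie on the same side of equality.

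Long loci were spread over all 10 chromosomes, in numbers from 48 on chromosome 6 to 123 on chromosome 1. As a share of the kept features of a chromosome they ranged from 1.45% on chromosome 5 to 2.48% on chromosome 2. The share of long loci past 2-fold was highest on chromosome 4, at 8.24% of 85, and lowest on chromosome 3, at 1.27% of 79. Over all features the shares were 12.9% on chromosome 4 and 11.7% on chromosome 3. Chromosomes 1, 2 and 9 stood at 8.13%, 7.89% and 7.69% of long loci, and the others at or below 4.17%. For all features, chromosomes 1, 2 and 9 stood at 9.11%, 10.99% and 10.49%. On every chromosome the share of long loci was below that of all features. Each share of long loci rests on 10 or fewer features past 2-fold.

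Position along the chromosome, which the definition does not use, differed between long loci and the rest. With chromosome length taken as the highest listed end, 40.5% of long loci lay between 25% and 75% of their chromosome, against 35.3% of all features and 36.2% of those on spans of 10 to 20 kb. With each chromosome divided into 10 equal bins, the fifth bin held 8.21% of long loci and 5.18% of all features, and the last bin 15.05% of long loci and 18.1% of all features. Not every bin followed this. The seventh bin, within the central part, held 6.98% of long loci and 9.17% of all features. The ninth bin, outside it, held 13.95% of long loci and 13.47% of all features. The central share was 34.6% for spans of 20 to 30 kb, close to that of all features, 43.2% from 30 to 50 kb, 67.2% (43 of 64) from 50 to 100 kb and 73.3% (11 of 15) from 100 to 200 kb. The larger central share of long loci thus came from spans of 30 kb or more. The regions around maize centromeres are known to be poor in genes and rich in retrotransposons. These shares describe the listed features and were not tested.

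Differences past 2-fold were also more frequent among long loci there, with 21 of 296 (7.09%) in the central part and 19 of 435 (4.37%) outside it. The fifth bin, within the central part, went the other way, with 1 of 60 long loci (1.67%) past 2-fold and 13.1% of all features. Over all features the shares were 12.1% in the central part and 9.81% outside, whereas on spans of 10 to 20 kb they were 2.67% and 3.03%. Place and span moved together among the long loci, so their parts in this difference cannot be told apart from these counts.

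**Figure D5:**
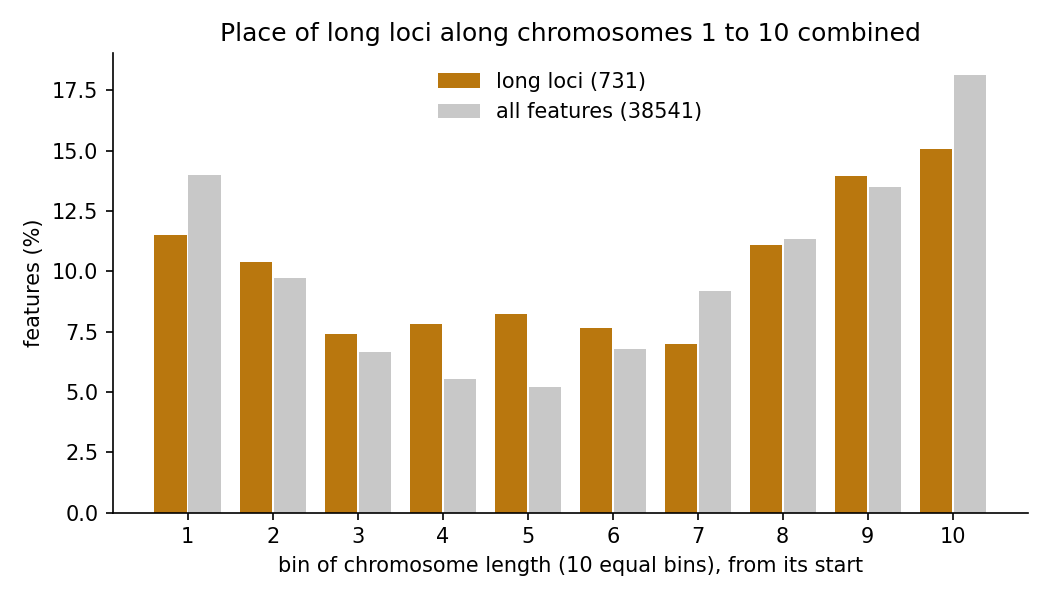
Bars give the percentage of the 731 long loci (brown, left) and of all 38541 kept features (grey, right) in each of 10 equal bins of chromosome length, chromosomes 1 to 10 combined. Long loci make up a larger percentage than all features in the fifth bin (8.21% against 5.18%) and a smaller one in the last (15.05% against 18.1%). Their percentage is also smaller in the seventh bin (6.98% against 9.17%), within the central part.

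The surroundings of long loci were sparser than those of all loci, more so by the gap to the nearest span than by the number of spans nearby. The nearest other span lay at a median of 3664 bp from a long span, against 3070 bp for spans of 10 to 20 kb and 2437 bp over all spans. Within 500 kb to either side of its centre a long span had a median of 28 other spans, against 31 for spans of 10 to 20 kb and 32 over all spans. A long span itself fills part of this window. A single long span of 883 overlapped another span. Together the long spans covered 30.9 Mb, or 15.5% of the length of all listed spans.

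The next locus along the chromosome was past 2-fold in a larger share beside long loci that were so themselves, but the counts were small. For the 40 long loci past 2-fold, the nearest kept feature on another span was past 2-fold in 8 cases (20%), and for the 691 others in 79 cases (11.4%). Over all kept features the share past 2-fold was 10.6%. For the 22 higher long loci, 2 of these neighbours were 2-fold higher and 3 were 2-fold lower. For the 18 lower ones, 2 were 2-fold lower and 1 was 2-fold higher. These counts are too few to show a common direction, and the difference in share was not tested.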

How the data were processed

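Endosperm RNA of 1 fl4 and 1 wild type library was sequenced, and the deposited FPKM values are used as the authors computed them, per the file headers. The submitters' processing notes name Bowtie 0.12.2. How fragments were quantified, the feature length behind FPKM, the genome build, the annotation, any filter and any pooling of replicates are not given in the sources at hand, and sequencing depth is unknown. Both files list the same 65535 features, and whether that list is complete is not known. Of these features, 8 with unreadable positions and those outside chromosomes 1 to 10 were left out.

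Span is end minus start plus 1. The log2 ratio uses a pseudocount of 1 FPKM, which understates changes of low features, and a feature was kept when either library reached 1 FPKM. Features named by position were the 2 largest and 2 smallest ratios (at least 10 FPKM, above 0 in both libraries), and, where within 2-fold, the 8 most abundant and the 5 longest. Other features past 2-fold are given without a position. Members, classes and lists were chosen with earlier results of these data known. Alternatives covered pseudocount, filter, threshold, scaling and span. Computation used Python 3.11.15, pandas 2.3.3 and NumPy 2.4.6.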

Additional observations from a re-analysis of the deposited data

Results flagged for a closer look

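Signal was present in features left out of the comparison because their positions could not be read, and whose spans are therefore unknown. Their sum over 8 features was 76.0 FPKM in fl4, against 63.3 FPKM in wild type. The fl4 value was above the wild type one for 6 of them, and no test was made of this.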

How the results depend on the processing

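Of 68 alternative values for the counts, shares, medians, sum and places of long loci, 36 stayed within the limits set for each result (1.5 times for counts, a 95% binomial interval over features for shares and medians, and 0.1 for the log2 ratio of sums), 30 moved beyond them and 2 reversed. The intervals treat features of the same 2 libraries, some on a shared span, as independent. They are yardsticks for description and measure no spread between plants. The reversals came with scaling to the same total after leaving out the 20 most abundant features, where the median log2 ratio went to -0.070 and the log2 ratio of the summed FPKM (0.14) to -0.018. With this scaling the median over all features went to -0.060. Median centring took the median of long loci to 0.0050. The counts of long loci at least 2-fold higher and lower (22 and 18) were 10 and 4 when 5 FPKM was the pseudocount, 51 and 39 at 1.5-fold, 8 and 0 at 4-fold, 9 and 6 with spans of at least 30 kb, 5 and 2 with spans of at least 50 kb, and 13 and 5 on spans with 1 feature. They were 32 and 29 with 0.1 FPKM as the pseudocount, 16 and 7 with a filter of 5 FPKM, and 19 and 11 with 1 summed value per span, a setting chosen after seeing the data. The span and feature limits leave fewer features by construction. The share past 2-fold (5.47%) moved to 8.34% when the pseudocount was 0.1 FPKM, 1.92% when it was 5 FPKM, 3.51% with no filter, 8.86% from 50 kb, 12.3% at 1.5-fold and 1.09% at 4-fold. At 4-fold, 2.05% of all features were higher in fl4 and 1.24% lower. For the other pseudocounts, the other filters and 1.5-fold, no share over all features is given. These shifts therefore cannot be called particular to long loci. The median log2 ratio (0.066) moved to 0.019 without a filter, 0.090 with a filter of 5 FPKM and 0.038 from 30 kb. The median level moved to 3.12 FPKM in fl4 and 3.26 FPKM in wild type without a filter, and to 7.26 FPKM in fl4 and 7.11 FPKM in wild type from 30 kb. The share between 25% and 75% of the chromosome (40.5%) moved to 50.6% from 30 kb. Except where the construction shows it, the cause was not tested. No paired analysis was possible because fl4 and wild type have 1 library each, and no replicate could be left out. With read depth not known, what it limits cannot be said.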
